A study of Mus musculus and Rattus norvegicus with 79 samples.

Results

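Livers of fed mice were compared with livers of unfed mice at Zeitgeber time 13 (ZT13), the first hour of the dark phase. The comparison rests on 6 of the 79 samples of the series, 3 labelled fed and 3 labelled unfed at ZT13, and they were picked by those labels alone. All 6 came from C57BL/6 mice without virus treatment that were kept in 12 h of light and 12 h of darkness and trained to eat at night. Polyadenylated RNA of whole liver was sequenced. Zeitgeber time counts hours from lights on, so lights went off at ZT12. The labels do not give when food was offered or taken away, or the age or sex of the mice. They also do not say whether each library came from a separate mouse, so p-values measure the spread between libraries only. In the main fit that spread was estimated over all C57BL/6 libraries, most of them from other hours than ZT13.

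The series as a whole asks how feeding regulates liver genes in wild-type mice and in mice without the glucocorticoid receptor (GR, encoded by Nr3c1) in liver. Other groups used here are C57BL/6 livers fed and unfed at ZT14, ZT18 and ZT22, and C57BL/6 livers unfed at ZT10, with 3 libraries in each group. Livers of Nr3c1fl/fl mice given AAV-tbg-GFP, a virus that makes green fluorescent protein behind the hepatocyte promoter tbg, were fed at ZT13 or unfed at ZT12, again with 3 libraries in each group. Their RNA was depleted of ribosomal RNA instead of being selected by its polyA tail. GR binding sites had been mapped by chromatin immunoprecipitation in liver at ZT10.

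A meal raises blood glucose, amino acids and insulin. In hepatocytes insulin acts through AKT, which drives the transcription factor FOXO1 out of the nucleus, so FOXO1 targets such as Igfbp1, G6pc and Irs2 lose transcription. Insulin also raises SREBP-1c, the Srebf1 product that turns on lipid synthesis genes, and amino acids with insulin switch on the growth kinase mTORC1. Glucocorticoids, which in mice peak near the onset of darkness, act through GR on many of the same fasting genes.

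The 6 libraries held 47.9 to 62.7 M counts in the fed group and 39.7 to 47.5 M in the unfed group, within the 23.9 to 91.8 M of all 27 C57BL/6 libraries. Hepatocyte transcripts such as Alb and Apoa1 were abundant in both groups, as in liver. The 10 hepatocyte markers summed to 97267 to 106437 CPM (counts per M counted) in fed livers, against 100501 to 121660.1 CPM in unfed livers. None of the 66 tested members of 9 marker lists for hepatocytes, Kupffer, endothelial, stellate, bile duct, lymphoid, red blood, pancreatic and fat cells passed the threshold in edgeR's test, 4 had an unadjusted p under 0.05, and DESeq2 called 1. Over all genes tested, 12.9% had an unadjusted p under 0.05. Of the markers, 3 of the 4 small p-values and the DESeq2 call were among the 12 endothelial markers. For 11 of those 12 the log2 fold change of fed over unfed livers was below 0, as for 51.8% of all genes tested. Endothelial markers summed to 425 to 481 CPM in fed livers, against 448 to 564 CPM in unfed livers. Kupffer cell markers summed to 321 to 389 CPM in fed livers, against 320 to 417 CPM in unfed livers. The 8 neutrophil markers had no more than 10 counts in any of the 6 libraries and were not tested. The deposited table held no row for 9 mitochondrial transcripts. Unfed replicate 3 stood apart in quality measures. Rows that matched no gene held 2.24% of its counts, against 0.308 to 0.508% in the other 5 libraries, and 84.6% of its counts from 1 to 10 were even, against 75.7 to 78%. Its correlation with the others over genes was 0.984 to 0.989, against 0.9904 to 0.9948 among those 5. The part of these measures in the results was not tested.

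At ZT13, 162 of 14744 tested genes (1.1%) differed between fed and unfed livers at an adjusted p under 0.05. Of these, 69 were higher in fed livers (0.468% of all genes tested) and 93 were lower (0.631%). The adjusted p comes from edgeR's quasi-likelihood test over all 27 C57BL/6 libraries, with the Benjamini-Hochberg adjustment over all genes tested. At an unadjusted p under 0.05, 1903 genes (12.9%) differed. Fold changes are fed over unfed on the log2 scale and carry a standard error (SE). They ran from 0.37 to 2.59 for genes that rose, with a median of 0.77, and from -0.32 to -3.64 for genes that fell, with a median of -0.72. The last value, of Apba2, rests on averages of 0.0239 CPM in fed and 0.326 CPM in unfed livers. A log2 change of at least 1 in size was reached by 16 genes that rose and 26 that fell. Fed and unfed libraries did not overlap for 66 of the 69 genes that rose and for all 93 that fell, where 8.15% and 9.24% of all genes tested showed such a gap upward and downward. In whole liver, fewer cells of a type and less RNA per cell cannot be told apart.

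The libraries of each group were not alike in how far they stood from the other group. Unfed replicate 1 was the highest of the unfed livers, and so the nearest to the fed ones, for 48 of the 69 genes that rose. It was the lowest of the unfed livers for 54 of the 93 genes that fell. Unfed replicate 3 was the lowest of the unfed livers for 38 of the genes that rose and the highest for 52 of those that fell. Fed replicate 2 was the highest of the fed livers for 39 of the 69 genes that rose. How often each library was highest or lowest over all genes tested was not counted. These counts thus cannot show whether the pattern is particular to the called genes. With each of the 6 libraries left out in turn, 37 genes kept their call, of which 15 rose and 22 fell, while 122 of the 162 lost it without fed replicate 2. The number of genes past the threshold was then 40. It was 85 without fed replicate 3, 76 without unfed replicate 2, 72 without unfed replicate 3 and 434 without unfed replicate 1. Igfbp1, Depp1, Fbxo32, Sesn2, Btg1, Srebf1, Mid1ip1, Angptl8 and Rcan1 were among the 37.

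**Figure D1:**
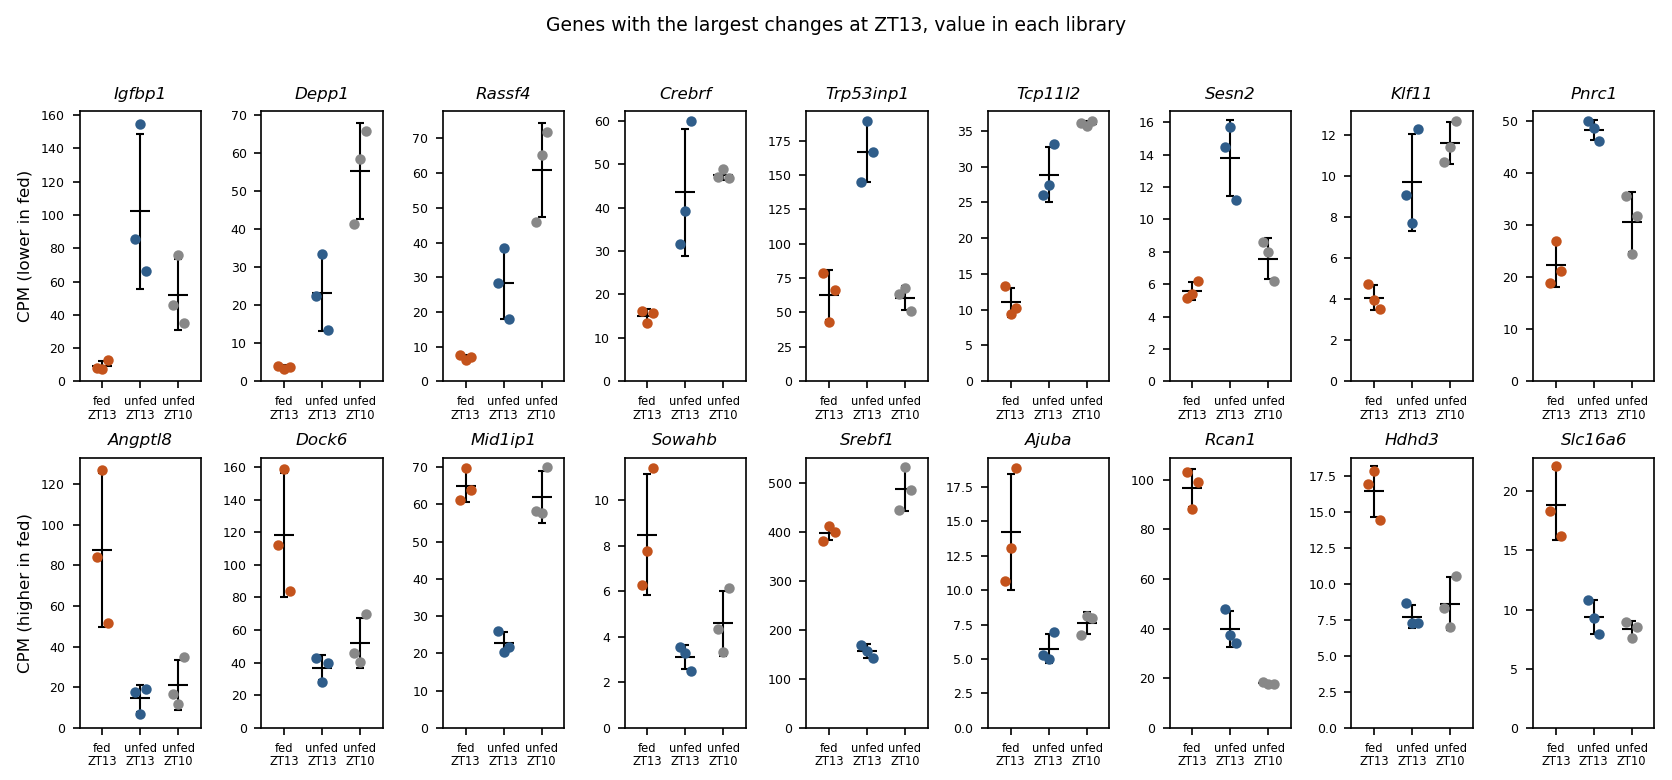
Each panel shows 1 gene in CPM, with a point for each library of fed ZT13 (orange), unfed ZT13 (blue) and unfed ZT10 livers (grey), a bar at the mean and whiskers of 1 SD (n = 3). The 9 genes of the upper row were lower and the 9 of the lower row higher in fed livers at ZT13. They were picked from the largest changes without overlap between fed and unfed ZT13 libraries. Only genes that kept their call with any 1 ZT13 library left out are shown. The gap between fed and unfed ZT13 points in every panel thus follows from the choice of genes.

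Of 22 tested genes of the insulin and FOXO target list, 4 fell in fed livers. Igfbp1, which encodes a secreted protein that binds insulin-like growth factors, was at 7.83, 7.49 and 12.6 CPM in fed livers, against 85.7, 155 and 66.2 CPM in unfed livers. Every fed liver lay far below every unfed one, and the unfed livers differed among themselves more than the fed ones. The gene fell 10.9-fold, with a log2 fold change of -3.45 ± 0.41 (SE, adjusted p = 2.66e-05). It lies at chr11:7197787-7202546 in GRCm38.p6, the build whose coordinates are those of mm10. Unfed ZT10 livers averaged 52.1 CPM.

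Promoters of genes that fell were searched for CAAAACAA, the core of the insulin response sequence that FOXO proteins bind, on both strands. The motif was chosen after the results were seen, and the windows run from 250 bases before to 50 bases after the start in RefSeq. It stood in 5 of the 73 genes that fell and had a window (6.85%), namely Ccng2, Crebrf, Enpp3, Fbxl20 and Igfbp1, and in 1 of 51 that rose (1.96%), against 260 of 11660 tested genes (2.23%). A match describes the letters of the window and is no measured binding site. The windows of Igfbp1 (chr11:7197537-7197836, plus strand), Ccng2 (chr5:93267323-93267622, plus strand) and Crebrf (chr17:26715400-26715699, plus strand), all GRCm38.p6 from RefSeq, are shown because these 3 genes are among the FOXO targets or strongest decreases. Capitals mark the motif.
Igfbp1: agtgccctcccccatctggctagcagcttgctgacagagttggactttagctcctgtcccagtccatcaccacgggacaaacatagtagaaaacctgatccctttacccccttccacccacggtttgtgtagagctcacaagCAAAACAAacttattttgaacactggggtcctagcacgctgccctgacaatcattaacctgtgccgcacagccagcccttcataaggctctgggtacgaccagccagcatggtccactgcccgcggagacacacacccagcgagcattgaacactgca
Ccng2: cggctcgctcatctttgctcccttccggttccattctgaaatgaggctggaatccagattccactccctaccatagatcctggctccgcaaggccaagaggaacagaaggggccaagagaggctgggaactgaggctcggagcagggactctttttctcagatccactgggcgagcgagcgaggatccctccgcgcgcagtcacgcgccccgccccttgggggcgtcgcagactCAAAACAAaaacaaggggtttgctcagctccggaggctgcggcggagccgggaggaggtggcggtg
Crebrf: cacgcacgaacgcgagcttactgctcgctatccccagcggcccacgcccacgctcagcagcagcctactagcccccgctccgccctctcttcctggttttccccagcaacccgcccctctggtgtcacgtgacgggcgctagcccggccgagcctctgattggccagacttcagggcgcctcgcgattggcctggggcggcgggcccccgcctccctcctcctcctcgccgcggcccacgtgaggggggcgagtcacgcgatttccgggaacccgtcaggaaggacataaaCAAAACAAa
The motif starts 108 bases before the annotated start in Igfbp1 and 16 bases before it in Ccng2. In Crebrf the motif starts at base 41 after the promoter start on which the window is placed. That promoter start lies downstream of the start of the Crebrf gene interval, chr17:26715594.

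Depp1, a FOXO target linked to autophagy, was at 4.06, 3.17 and 3.84 CPM in fed livers, against 22.5, 33.4 and 13.5 CPM in unfed livers. Its log2 fold change was -2.66 ± 0.44 (adjusted p = 0.002). Rassf4, whose interval holds the whole of Depp1, changed by -2.04 ± 0.33, and unstranded reads of the pair could not be told apart. Rassf4 was at 7.47, 6.12 and 7.12 CPM in fed livers, against 28.2, 38.5 and 18 CPM in unfed livers. The libraries of each group ranked as they did for Depp1. Whether Rassf4 changed apart from Depp1 was not tested. Fbxo32, which encodes the ubiquitin ligase atrogin-1, stood at 1.01, 1.52 and 1.59 CPM in fed livers, against 2.45, 3.91 and 5.85 CPM in unfed livers (log2 -1.55 ± 0.28, adjusted p = 0.00372). Ccng2, a cyclin that slows the cell cycle, stood at 6.18, 4.6 and 10.8 CPM in fed livers, against 16.4, 13.6 and 15.9 CPM in unfed livers. Its call (log2 -1.08 ± 0.22, adjusted p = 0.011) was lost without fed replicate 1, fed replicate 2 or unfed replicate 3, at adjusted p-values of 0.0589 to 0.135.

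Across the insulin and FOXO target list 4 genes of the 22 fell and none rose, where 1.1% of all genes passed. The list was chosen with earlier results of these data known, so these counts are no independent test of it. The median log2 fold change was -0.51 over the list and -0.01 over all genes tested, and 21 of the 22 values were below 0, as were 51.8% of all genes. The mean log2(CPM + 1) over the list was 5.46, 5.45 and 5.53 in fed livers, against 6.23, 6.38 and 6.1 in unfed livers. Other members named by the rule did not pass. Irs2, an adaptor of the insulin receptor, had a log2 fold change of -1.03 ± 0.29 (adjusted p = 0.0852), and G6pc, the last enzyme of glucose release, one of -1.1 ± 0.31 (adjusted p = 0.0815). Pck1, a key enzyme of gluconeogenesis, was at 4179, 3173 and 4498 CPM in fed livers, against 6367, 6125 and 5477 CPM in unfed livers, with a log2 fold change of -0.6 ± 0.28 (adjusted p = 0.367).

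**Figure D2:**
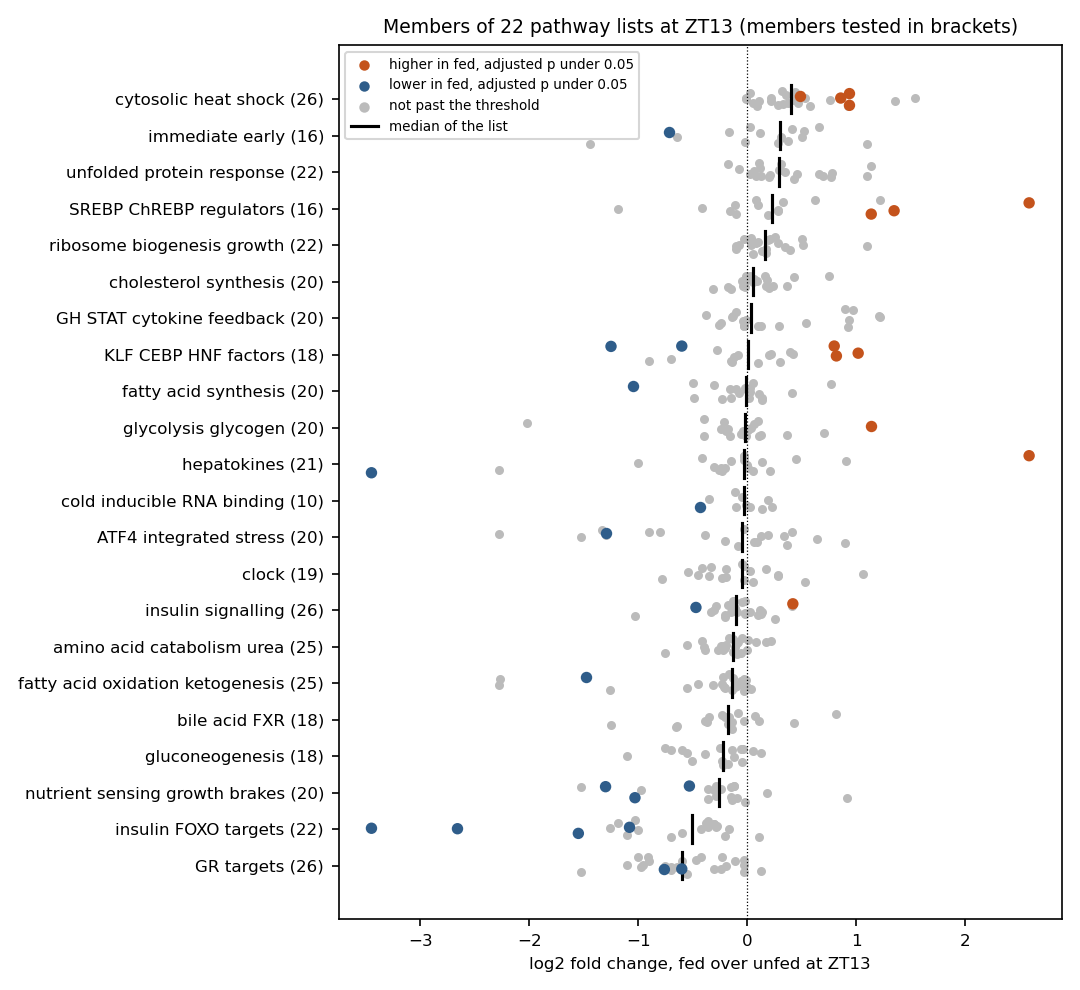
Each row is 1 of 22 pathway lists and each point a tested member, placed by its log2 fold change of fed over unfed livers at ZT13, with members past the threshold in orange (higher) or blue (lower) and a black bar at the list's median. The list medians lie between -0.6 for GR targets and 0.4 for cytosolic heat shock genes, and 26 genes in all are coloured, some of them on several lists.

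Of 20 tested genes that hold back growth or sense nutrients, 3 fell, as did 0.631% of all genes tested. Sesn2 encodes a leucine sensor that restrains mTORC1. It was at 5.14, 5.4 and 6.2 CPM in fed livers, against 14.5, 15.7 and 11.2 CPM in unfed livers, with no overlap. It changed by -1.3 ± 0.17 (adjusted p = 0.00015), and unfed ZT10 livers, at 7.58 CPM on average, lay nearer to fed than to unfed ZT13 livers. Btg1, an inhibitor of proliferation, was at 10.8, 15.4 and 15.2 CPM in fed livers, against 27.1, 26.2 and 31.4 CPM in unfed livers (log2 -1.03 ± 0.14, adjusted p = 0.000292). Fnip1, a partner of folliculin in lysosomal nutrient sensing, changed by -0.53 ± 0.1 (adjusted p = 0.00576), but not past the threshold without fed replicate 2, fed replicate 3 or unfed replicate 3 (adjusted p = 0.0506 to 0.079). These 3 were the members of the nutrient brake list that passed, none rose, and the list's median was -0.26. Ddit4, another mTORC1 inhibitor on the list, was at 15.3, 13.7 and 21.7 CPM in fed livers, against 58.1, 57 and 31 CPM in unfed livers, and did not pass (log2 -1.53 ± 0.43, adjusted p = 0.081).

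Of 5 further decreases, 4 were of genes outside the pathway lists. Tcp11l2 was at 13.3, 9.44 and 10.3 CPM in fed livers, against 26, 27.4 and 33.2 CPM in unfed livers (log2 -1.39 ± 0.14, adjusted p = 4.45e-06). Crebrf, a regulator of energy storage and of the glucocorticoid receptor, was at 16.2, 13.4 and 15.7 CPM in fed livers, against 31.6, 39.3 and 59.9 CPM in unfed livers (log2 -1.53 ± 0.17, adjusted p = 1.32e-05). Both groups of libraries were clearly apart for each of these genes. Trp53inp1, a p53 target that promotes autophagy, was at 78.5, 42.8 and 66.6 CPM in fed livers, against 145, 189 and 167 CPM in unfed livers (log2 -1.41 ± 0.22, adjusted p = 0.00144). Pnrc1, a nuclear receptor coactivator, was at 18.8, 27 and 21.2 CPM in fed livers, against 50, 48.7 and 46.1 CPM in unfed livers (log2 -1.11 ± 0.15, adjusted p = 0.000148). Klf11, a Krüppel-like repressor on the list of KLF, C/EBP and HNF factors, was at 4.74, 3.98 and 3.51 CPM in fed livers, against 9.07, 7.7 and 12.3 CPM in unfed livers (log2 -1.25 ± 0.19, adjusted p = 0.00139). All 5 kept their call with any 1 of the 6 libraries left out.

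Ip6k2, an inositol phosphate kinase, averaged near the largest decreases, with a log2 fold change of -1.67 ± 0.31. It was at 19.9, 19.4 and 25.6 CPM in fed livers, against 75.3, 74.2 and 57.3 CPM in unfed livers, and its adjusted p of 0.00471 became 0.0584 without fed replicate 2. Fbf1, a ciliary protein gene (log2 -1.44 ± 0.28), and Zpr1, a zinc finger protein gene (log2 -1.16 ± 0.21), likewise lost their calls without fed replicate 2, at adjusted p-values of 0.0947 and 0.0576. Zpr1 has Bud13, a splicing factor gene, as its close neighbour on chromosome 9. Bud13 changed by -1.09 ± 0.27 (adjusted p = 0.0455) and lost its call without fed replicate 2, fed replicate 3, unfed replicate 2 or unfed replicate 3, at 0.12 to 0.291.

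Srebf1 and Mid1ip1, regulators of lipid synthesis, rose. Srebf1 was at 382, 413 and 401 CPM in fed livers, against 170.1, 158 and 142 CPM in unfed livers. The 3 values of each group lay close together and far from the other group, with a log2 fold change of 1.35 ± 0.21 (adjusted p = 0.00139). Unfed ZT10 livers averaged 487 CPM, above both ZT13 groups. Mid1ip1, which encodes an activator of acetyl-CoA carboxylase, was at 61.3, 69.9 and 63.8 CPM in fed livers, against 26, 20.4 and 21.8 CPM in unfed livers (log2 1.52 ± 0.21, adjusted p = 0.000292), and at 62 CPM on average in unfed ZT10 livers. Unfed livers 3 h earlier thus stood near or above fed ZT13 livers for both genes.

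Angptl8, which encodes a feeding-induced inhibitor of lipoprotein lipase, had the largest rise. It was at 84.2, 127 and 51.5 CPM in fed livers, against 17.9, 6.95 and 19 CPM in unfed livers (log2 2.59 ± 0.46, adjusted p = 0.00353). Angptl8 lies inside Dock6 (chr9:21835510-21837347 within chr9:21800180-21852718), and Dock6 rose by 1.68 ± 0.27 (adjusted p = 0.00155). Dock6 was at 112, 159 and 84 CPM in fed livers, against 42.7, 28 and 40 CPM in unfed livers. For both genes fed replicate 2 was the highest fed library and unfed replicate 2 the lowest unfed one. Reads of the nested pair could not be told apart, since no source used here gives the strand used in counting. Whether Dock6 changed apart from Angptl8 was not tested. Of the 162 called genes, 10 overlap another called gene, so their calls may not be separate changes.

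Of the 16 tested regulators on the SREBP and ChREBP list, 3 rose, as did 0.468% of all genes tested. Angptl8 and Srebf1 were among the 3, no regulator on the list fell, and the list's median was 0.23. The enzymes that these regulators serve had few calls at this hour. None of 20 cholesterol synthesis genes passed in edgeR's test (median 0.05), 1 had an unadjusted p under 0.05 and DESeq2 called 1. Mvd, a decarboxylase of that pathway, had the smallest p (log2 0.75, adjusted p = 0.0786). Of 20 fatty acid synthesis genes 1 passed in edgeR's test, Lpin2, which fell, 4 had an unadjusted p under 0.05 and DESeq2 called 3. Over all genes tested, 12.9% had such a p. Fasn, the fatty acid synthase, was at 586, 532 and 564 CPM in fed livers, against 374, 302 and 313 CPM in unfed livers, and did not pass (log2 0.77 ± 0.2, adjusted p = 0.0536). Lpin2, a phosphatidate phosphatase of glyceride synthesis, was at 408, 306 and 388 CPM in fed livers, against 716, 779.5 and 792 CPM in unfed livers. Its log2 fold change was -1.05 ± 0.19 (adjusted p = 0.0038), which became 0.058 without fed replicate 2.

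Rcan1 had the smallest adjusted p of all genes. It encodes an inhibitor of the phosphatase calcineurin and lies at chr16:92391951-92466169. Its level was 103, 88.1 and 99.1 CPM in fed livers, against 47.8, 37.4 and 34.1 CPM in unfed livers, with a log2 fold change of 1.28 ± 0.12 (adjusted p = 1.67e-06). Unfed ZT10 livers were lower still, at 17.9 CPM on average. Slc16a6, a transporter known to export ketone bodies in zebrafish liver, was at 18.3, 22.1 and 16.2 CPM in fed livers, against 10.8, 9.32 and 7.94 CPM in unfed livers (log2 1.01 ± 0.17, adjusted p = 0.00282). Ajuba, a LIM protein of the Hippo pathway, rose by 1.31 ± 0.21, Hdhd3, a member of a hydrolase family, by 1.09 ± 0.19, and Sowahb by 1.45 ± 0.27 (adjusted p = 0.00179, 0.00353 and 0.00471). All 5 genes kept their call with any 1 library left out.

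Nuak2, an AMPK-related kinase, and Csf1, the growth factor of macrophages, rose by 0.95 ± 0.22 and 0.94 ± 0.19 (adjusted p = 0.0289 and 0.012). Both calls were lost without fed replicate 2, unfed replicate 2 or unfed replicate 3, at adjusted p-values of 0.0684 to 0.222. Among genes picked after their values were seen, Wnt5b, a secreted Wnt ligand, rose by 0.63 ± 0.1 (adjusted p = 0.00144). Ppargc1b, a coactivator of mitochondrial and lipid genes, fell by 0.76 on the log2 scale (SE 0.14, adjusted p = 0.00376). Slc25a33, a mitochondrial pyrimidine nucleotide carrier, fell by 0.87 (SE 0.15, adjusted p = 0.00338). These 3 kept their call without any 1 library.

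In the insulin signalling list, 1 of 26 tested genes rose and 1 fell, where 1.1% of all genes tested passed, and the median was -0.1. Pik3r1, the regulatory subunit of PI3-kinase, was at 233, 219 and 239 CPM in fed livers, against 164, 173 and 181 CPM in unfed livers (log2 0.42 ± 0.1, adjusted p = 0.0455). Leaving out any of the 6 libraries took this call away, at adjusted p-values of 0.0682 to 0.14. Rictor, the subunit that defines mTORC2, fell by 0.47 on the log2 scale (SE 0.11, adjusted p = 0.0363), a call that only the fit without unfed replicate 1 kept, the others giving 0.058 to 0.361.

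Of 26 tested genes of the cytosolic heat shock response, mostly chaperones, 4 rose, as did 0.468% of all genes tested. Hsp90aa1, the inducible HSP90, was at 185, 270.3 and 229 CPM in fed livers, against 159, 104 and 93.5 CPM in unfed livers (log2 0.94 ± 0.19, adjusted p = 0.0105). Hsph1, a nucleotide exchange factor of HSP70, was at 146, 214 and 186 CPM in fed livers, against 135, 82.7 and 65.5 CPM in unfed livers (log2 0.94 ± 0.24, adjusted p = 0.0465). In both genes unfed replicate 1 stood close below fed replicate 1, and fed replicate 2 was highest. Bag3, a cochaperone of selective autophagy, rose by 0.86 ± 0.2 (adjusted p = 0.0295), and Dnaja1, a cochaperone of HSP70 that overlaps a predicted gene, by 0.49 ± 0.11 (adjusted p = 0.0196).

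No member of the heat shock list fell, and the list had a median of 0.4. DESeq2 called 9 of the 26, against 352 of all 14744 genes. Of the 26 values 24 were above 0, against 48.2% of all genes. Fed and unfed libraries did not overlap for 12 of the 26, all higher in fed, where 8.15% of all genes tested showed such a gap upward. Mean log2(CPM + 1) over the list was 6.44, 6.76 and 6.65 in fed livers, against 6.42, 6.09 and 5.9 in unfed livers, so fed replicate 1 and unfed replicate 1 were nearly level. None of the 4 calls remained without fed replicate 2, unfed replicate 2 or unfed replicate 3 (adjusted p over all their losses 0.058 to 0.296), and the list then held no call. Without unfed replicate 1 it held 11. Hspa1b, an inducible HSP70 gene, stood at 34, 76.9 and 56.7 CPM in fed livers, against 33.1, 16 and 8.78 CPM in unfed livers, and missed the threshold (log2 1.54 ± 0.39, adjusted p = 0.0501). Its copy Hspa1a is nearly identical, so reads may be split between them.

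The window of Hsph1 (chr5:149636287-149636586, minus strand, GRCm38.p6, RefSeq) is shown because it was the single window among the 51 of genes that rose to hold a heat shock element of 3 units, GAA then TTC then GAA with 2 bases of any kind between units, searched on both strands and chosen after the results were seen. The promoter source lists 2 promoters of Hsph1, and the window is that of 1 of them. Capitals mark the match, which starts at base 36 after the annotated start of that promoter.
Hsph1: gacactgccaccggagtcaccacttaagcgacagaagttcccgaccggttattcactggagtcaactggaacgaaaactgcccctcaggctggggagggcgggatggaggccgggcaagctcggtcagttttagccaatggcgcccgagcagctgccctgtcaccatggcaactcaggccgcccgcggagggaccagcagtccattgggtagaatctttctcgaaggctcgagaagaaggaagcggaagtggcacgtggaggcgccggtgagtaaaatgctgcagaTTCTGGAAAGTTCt
No window of the 73 genes that fell held it, against 0.583% of all windows. In the heat shock list 4 of 22 windows did (18.2%), those of Chordc1, Hspd1, Hspe1 and Hsph1, of which only Hsph1 was past the threshold at ZT13.

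**Figure D3:**
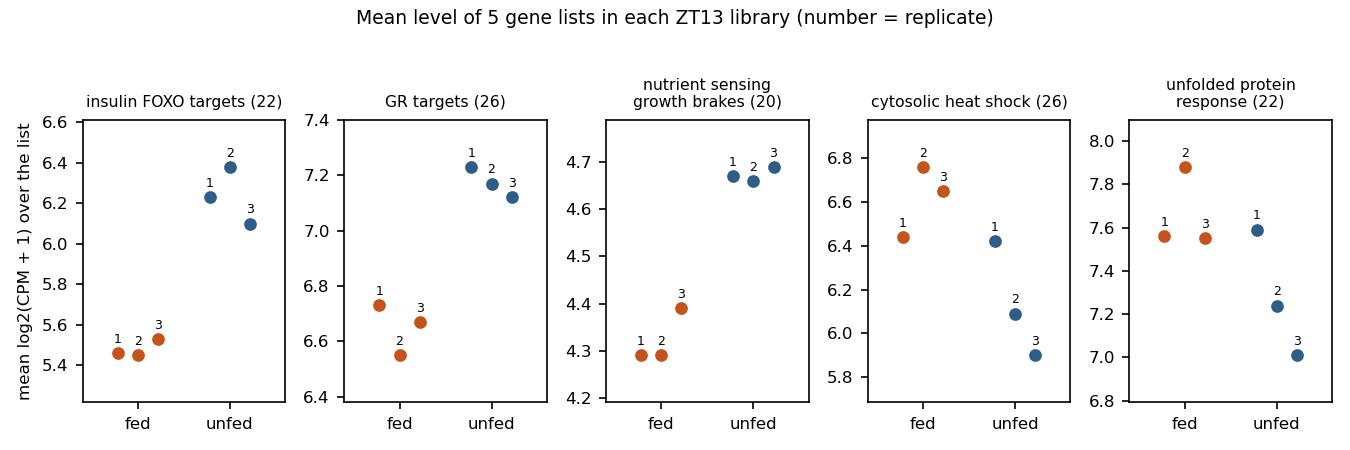
Mean log2(CPM + 1) over the tested members of 5 lists in each ZT13 library, fed in orange and unfed in blue, with the replicate number beside each point and the number of members in brackets. FOXO targets, GR targets and nutrient brakes separate the groups fully, while unfed replicate 1 reaches the fed range for unfolded protein response genes, at 7.59 against 7.55 to 7.88 in fed livers.

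Of 22 tested genes of the unfolded protein response, mostly chaperones of the endoplasmic reticulum, none passed at ZT13 in edgeR's test, 9 had an unadjusted p under 0.05 and DESeq2 called 3. The list's median was 0.29 and 20 of its values were above 0, as were 48.2% of all genes tested. Over all 14744 genes, 12.9% had an unadjusted p under 0.05 and DESeq2 called 352. Sdf2l1, an endoplasmic reticulum cochaperone, was at 18.3, 37.7 and 20.5 CPM in fed livers, against 18.1, 10.3 and 6.46 CPM in unfed livers (log2 1.14 ± 0.29, adjusted p = 0.052). Hspa5, the chaperone BiP, was at 989, 1400.4 and 1006 CPM in fed livers, against 966, 684 and 506 CPM in unfed livers (log2 0.66 ± 0.19, adjusted p = 0.0972). Fed replicate 2 was highest and unfed replicate 1 nearest to the fed livers for both. In the list of genes of ATF4 and the integrated stress response, which amino acid shortage activates, 1 of 20 fell, Sesn2, and the median was -0.05. There 10 genes had an unadjusted p under 0.05 and DESeq2 called 4.

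Foxa1, Foxa2 and Foxa3, pioneer factors that open liver enhancers, rose, while 2 other members of the 18 tested KLF, C/EBP and HNF factors fell. Foxa3 was at 116, 112 and 123 CPM in fed livers, against 80.4, 74.5 and 47.4 CPM in unfed livers (log2 0.8 ± 0.17, adjusted p = 0.0151). Foxa2 was at 58, 45.4 and 73.3 CPM in fed livers, against 31.6, 26.2 and 29.7 CPM in unfed livers (log2 1.02 ± 0.24, adjusted p = 0.0309). Foxa1, which overlaps the gene Ttc6, was at 48.9, 37.4 and 52.5 CPM in fed livers, against 29.7, 24.9 and 24.1 CPM in unfed livers (log2 0.82 ± 0.17, adjusted p = 0.0145). Gata4, a zinc finger factor of liver and endothelium that was picked after its value was seen, rose by 0.68 ± 0.16 (adjusted p = 0.0285). Fed and unfed libraries were apart for all 4, but none kept its call without unfed replicate 3 or without fed replicate 3, and over all such losses the adjusted p ran from 0.051 to 0.145.

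With Klf9 and Klf11 lower, the list of KLF, C/EBP and HNF factors had 3 members higher and 2 lower of 18, with a median of 0.01. Over all genes tested, 0.468% were higher and 0.631% lower. Klf9, a glucocorticoid-induced repressor, was at 115, 94.7 and 109 CPM in fed livers, against 161, 162 and 161 CPM in unfed livers (log2 -0.6 ± 0.14, adjusted p = 0.0279). Nfkbia, the inhibitor of NF-κB that glucocorticoids also induce, was at 38.6, 35.3 and 37.1 CPM in fed livers, against 63.7, 60.3 and 64.2 CPM in unfed livers (log2 -0.76 ± 0.16, adjusted p = 0.011). Unfed values were tight in both genes. Without fed replicate 2, fed replicate 3 or unfed replicate 3 neither call held, nor did that of Klf9 without unfed replicate 2 (adjusted p = 0.0568 to 0.209).

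Klf9 and Nfkbia were the members of the GR target list that passed, of 26 tested, and none rose, where 0.631% of all genes tested fell. The list had the lowest median of the 22, -0.6, with 25 values below 0, as were 51.8% of all genes tested. For 16 of its genes all fed libraries lay below the unfed ones, as for 9.24% of all genes tested. The list's mean log2(CPM + 1) was 6.73, 6.55 and 6.67 in fed livers, against 7.23, 7.17 and 7.12 in unfed livers. Several members also stand on the FOXO list. Fkbp5, a cochaperone of GR and one of its best known targets, was at 367, 362 and 415 CPM in fed livers, against 379, 368 and 424 CPM in unfed livers (log2 -0.03 ± 0.25, adjusted p = 0.975). Unfed ZT10 livers averaged 64.9 CPM for this gene, so both ZT13 groups stood far above them.

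GR peaks from ZT10 liver lay within 25 kb of 28 of the 69 genes that rose (40.6%, exact 95% interval 28.9 to 53.1%) and of 49 of the 93 that fell (52.7%, 42.1 to 63.1%), against 29.4% of all genes tested. The intervals cover counting error only. The peak list, of 5772 sites of 209 bases each that the depositors call concordant between replicates without saying which, gives positions without scores. A peak at chr16:92398076-92398284 lies inside Rcan1. Igfbp1 has peaks 3.08 and 4.79 kb outside its interval, Depp1 one at 0.112 kb, Srebf1 one at 0.492 kb and Pik3r1 has 4 inside.

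Other metabolic lists had at most 1 call in edgeR's test. Among 25 genes that oxidise fatty acids or make ketones, Cyp4a10, an omega-hydroxylase of fatty acids, fell, at 226, 272 and 154 CPM in fed livers, against 636, 502 and 686 CPM in unfed livers. Its log2 fold change was -1.48 ± 0.36 (adjusted p = 0.0404), lost with each library left out except unfed replicate 1 (0.0719 to 0.169). Its close relative Cyp4a32, outside the list and picked after its value was seen, changed by -1.05 ± 0.16 (adjusted p = 0.000809), and reads may be split within this family. The list's median was -0.14, 8 of its genes had an unadjusted p under 0.05 and DESeq2 called 4. Gluconeogenesis (18 genes, median -0.22), amino acid catabolism (25 genes, -0.13), bile acid (18 genes, -0.18), ribosome biogenesis (22 genes, 0.16), growth hormone and cytokine feedback (20 genes, 0.04) and clock genes (19 genes, -0.05) had no call in edgeR's test. These 6 lists, cholesterol synthesis and the unfolded protein response together held 161 tested genes, of which 37 had an unadjusted p under 0.05 and DESeq2 called 8. Over all 14744 genes tested, 12.9% had such a p and DESeq2 called 352. Having no call in edgeR's test thus does not show that these lists were unchanged.

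The 20 genes of glycolysis and glycogen had a median of -0.02. Hepatokines had 1 rise, Angptl8, and 1 fall, Igfbp1, of 21, where 1.1% of all genes tested passed. Fgf21, the fasting hepatokine, was at 0.144, 0.248 and 0.111 CPM in fed livers, against 0.544, 0.752 and 1.21 CPM in unfed livers, and did not pass (log2 -2.28 ± 0.64, adjusted p = 0.0809). Of 16 immediate early genes, Zfp36, an RNA-binding protein that shortens the life of cytokine mRNAs, fell by 0.72 on the log2 scale (SE 0.16, adjusted p = 0.0251), a call lost without fed replicate 2, fed replicate 3, unfed replicate 2 or unfed replicate 3 (0.0677 to 0.218). Among 10 cold-inducible and temperature-sensitive RNA-binding genes, Clk1, a splicing kinase that senses body temperature, fell by 0.43 (SE 0.08, adjusted p = 0.0046), and missed the threshold without fed replicate 2 or fed replicate 3 (0.053 to 0.0617). Per1, a clock gene, was at 93, 86.5 and 80 CPM in fed livers, against 112, 89.1 and 63.3 CPM in unfed livers (log2 -0.03 ± 0.33, adjusted p = 0.986).

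Unfed ZT10 livers give the level 3 h earlier in the same strain. For the 69 genes that rose, the ZT10 mean lay above both ZT13 means for 5, between them for 29 and below both for 35. For the 93 genes that fell, it lay above both for 43, between for 38 and below both for 12. It was nearer to the fed than to the unfed mean for 14 of the genes that rose and 21 of those that fell. The same was not counted over all genes tested. A trait of the called genes and a general shift from ZT10 to ZT13 thus cannot be told apart here. Hsph1 averaged 20.3 CPM and Hsp90aa1 46.8 CPM at ZT10, below every ZT13 liver, while Depp1 averaged 55.1 CPM, above every one.

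The ZT13 genes were followed at later hours in separate livers. Of the later libraries, 2 stood apart in markers of other cells. Fed ZT14 replicate 1 had bile duct markers summing to 127 CPM, against 19.1 to 38.5 CPM in the other 26 C57BL/6 libraries, and unfed ZT18 replicate 3 had pancreas markers summing to 248 CPM, against 12.9 to 33.8 CPM. At ZT14, 34 of the 69 genes that rose were again higher (49.3% of that list and 10.2% of the 333 genes higher at ZT14), where 2.26% of all genes passed. Of the 93 that fell, 79 were again lower (84.9%, and 15.9% of the 498 lower at ZT14), against 3.38% of all genes. None of either list passed the other way, and 69 and 91 kept their sign. At ZT18, 47 of the genes that rose were again higher (68.1%, and 2.4% of the ZT18 list, background 13.3%) and 4 were lower, while 79 of those that fell were again lower (84.9% and 4.08%, background 13.1%). At ZT22, 26 were again higher (37.7% and 1.69%, background 10.5%) and 46 again lower (49.5% and 3.19%, background 9.77%), with 1 and 3 past the threshold the other way. Without this pair of libraries, a setting chosen after seeing the data, 29 genes were again higher and 66 again lower at ZT14 (1.3% and 1.67% of all genes), and 38 and 76 at ZT18 (10% and 9.14%). In all, with the pair, 19 genes that rose and 37 that fell passed the same way at every hour.

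Igfbp1 had log2 fold changes of -3.14 at ZT14, -2.85 at ZT18 and -1.78 at ZT22. Srebf1 changed by 1.69, 1.68 and 2.39 at these hours, and Rcan1 by 1.63, 1.1 and 0.68. For Depp1 the values were -2.7, -1.64 and -0.16. Of the genes that passed at ZT13, 15 that rose and 3 that fell passed at none of the later hours, which is no test of a difference between hours. Among the 15 were Foxa2, Gata4, Bag3, Sowahb and Nuak2. The 3 that fell were Fcgr4, an Fc receptor of macrophages, Rhd, a red cell membrane protein, and Tut4, a terminal uridylyl transferase, named after their values were seen.

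**Figure D4:**
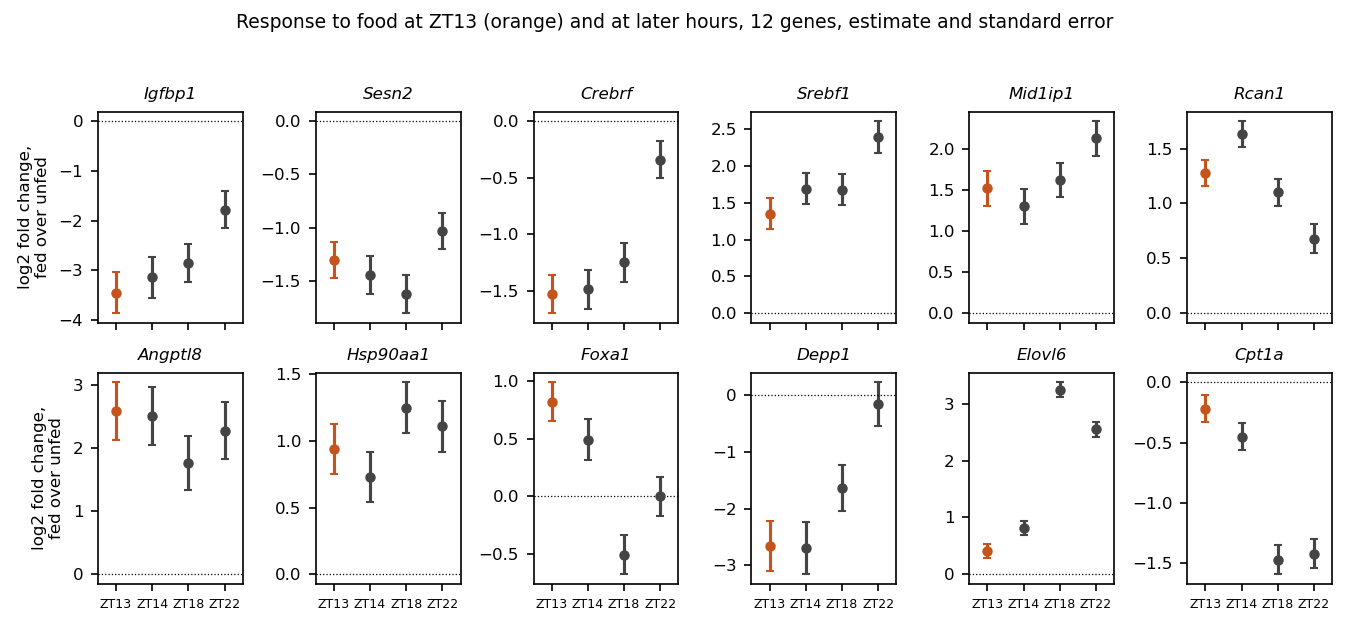
Log2 fold change of fed over unfed livers at ZT13 (orange) and at ZT14, ZT18 and ZT22 (grey) for 12 genes, with bars of 1 SE from the fit. Igfbp1, Srebf1 and Angptl8 respond on the same side of 0 at every hour, Foxa1 is above 0 at ZT13 and below it at ZT18, Depp1 is within 1 SE of 0 at ZT22, and Elovl6 and Cpt1a have their larger values at ZT18 and ZT22.

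The difference between the ZT13 response and later responses was tested directly. Between ZT13 and ZT14 no gene differed past the threshold in edgeR's test, nor in DESeq2's, while 1006 genes (6.82%) had an unadjusted p under 0.05. Against the mean response of ZT14, ZT18 and ZT22, 461 genes (3.13%) differed, with a value higher at ZT13 for 146 (0.99%) and lower for 315 (2.14%). The 461 became 407 without the pair of later libraries, 200 without fed ZT13 replicate 2, 207 without fed replicate 3 and 239 without unfed replicate 3. Of the 162 genes called at ZT13, 14 were among the 461, of which 8 had risen and 6 had fallen. Foxa1 and Foxa3 were of this kind, with a ZT13 response above the later mean by 0.83 (adjusted p = 0.0202) and 0.9 (adjusted p = 0.00989). For Foxa3 the log2 fold change was 0.8 at ZT13 and then, in the order of the later hours, 0.58, -0.54 and -0.35. Without fed replicate 3, unfed replicate 2 or unfed replicate 3 the difference for Foxa1 missed the threshold, at 0.0545 to 0.0853.

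Many lipid synthesis genes responded less at ZT13 than in the mean of the 3 later hours. Of the 20 cholesterol synthesis genes 18 differed from the later mean, where 3.13% of all genes tested did. In that list 1 was higher in fed livers at ZT14, 19 at ZT18 and 20 at ZT22. Over all genes tested, 2.26%, 13.3% and 10.5% were higher at these hours. The cholesterol list's median log2 fold change was 0.05 at ZT13 and then 0.2, 2.19 and 2. Of the 20 fatty acid synthesis genes 10 differed, counted in either direction. In this list 3 were higher in fed livers at ZT14, 12 at ZT18 and 12 at ZT22, while 1, 3 and 2 were lower at these hours. Elovl6, a fatty acid elongase, was at 199.6, 161 and 166 CPM in fed ZT13 livers, against 131, 125 and 140.5 CPM in unfed ZT13 livers. At ZT18 it averaged 492 ± 32.5 CPM in fed and 51.7 ± 5.3 CPM in unfed livers (SD, n = 3 each), and the ZT13 response was lower than the later mean by 1.8 on the log2 scale (adjusted p = 2.12e-08). Acly and Acss2, which make acetyl-CoA for lipid synthesis, had log2 fold changes of 0.14 and -0.16 at ZT13, 0.31 and 0.19 at ZT14, and 2.51 and 2.27 at ZT18.

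Other genes did not pass at ZT13 and were lower in fed livers at ZT18. Cpt1a, which admits fatty acids to mitochondria, was at 834, 719 and 666 CPM in fed ZT13 livers, against 903, 876 and 814 CPM in unfed ones (log2 -0.22 ± 0.11), while at ZT18 it averaged 179 ± 21.1 CPM in fed and 495 ± 66.4 CPM in unfed livers. Por, the electron donor of cytochrome P450 enzymes, had a log2 fold change of -0.11 ± 0.17 at ZT13, -0.44 ± 0.17 at ZT14 (adjusted p = 0.129) and -1.62 ± 0.17 at ZT18. Fkbp5 had a log2 fold change of -0.02 ± 0.25 at ZT14 (adjusted p = 0.975) and -1.78 ± 0.26 at ZT18, and its ZT13 response was above the later mean by 1.16 ± 0.29 (adjusted p = 0.0273).

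Livers of Nr3c1fl/fl mice given AAV-tbg-GFP allow a similar comparison in other mice, in which feeding and hour change together, since fed ZT13 livers are set against unfed ZT12 livers. Of 15712 genes tested there, 300 were higher (1.91%) and 164 lower (1.04%). Of the genes called in C57BL/6 livers at ZT13, 18 of the 69 that rose were again higher (26.1% of that list, 6% of the GFP list) and 15 of the 93 that fell were again lower (16.1% and 9.15%), with none past the threshold the other way. No gene passed when the fit held these GFP groups alone (2104 at an unadjusted p under 0.05, and 749 with DESeq2 on all groups). The 464 calls became 154, 279 and 149 without unfed GFP replicate 1, 2 or 3, and 219 and 234 without fed GFP replicate 2 or 3. Rows that matched no gene held 4.7, 2.65 and 2.52% of counts in the fed GFP libraries, against 23, 24.6 and 4.69% in the unfed GFP libraries, and the part of this in the result was not tested. The library preparation differs from that of the C57BL/6 livers too, so levels are not compared between the strains.

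Rcan1 was at 60.3, 74.1 and 64.8 CPM in fed GFP livers, against 32.9, 34.2 and 30.5 CPM in unfed GFP livers (log2 1.03 ± 0.12, adjusted p = 3.85e-05). Bag3 was at 76.4, 94.5 and 103 CPM in fed GFP livers, against 43.3, 38.2 and 39.3 CPM in unfed GFP livers (log2 1.18 ± 0.16, adjusted p = 0.00023). Hsph1 rose by 1.45 ± 0.28 and Hsp90aa1 by 1.13 ± 0.2 (adjusted p = 0.00458 and 0.00184), with all fed values above all unfed ones. Tcp11l2 and Crebrf fell there too, by 1.2 and 0.82 on the log2 scale (adjusted p = 0.00183 and 0.00997), though Crebrf missed the threshold without fed GFP replicate 3 (adjusted p = 0.0598). Igfbp1 was at 62.4, 19.1 and 3.4 CPM in fed GFP livers, against 55.6, 113 and 47.3 CPM in unfed GFP livers, and did not pass (log2 -1.34 ± 0.68, adjusted p = 0.32). Its first fed library lay among the unfed ones. Srebf1 was at 273, 229 and 298 CPM in fed GFP livers, against 242, 208 and 231 CPM in unfed GFP livers (log2 0.23 ± 0.18, adjusted p = 0.575).

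**Figure D5:**
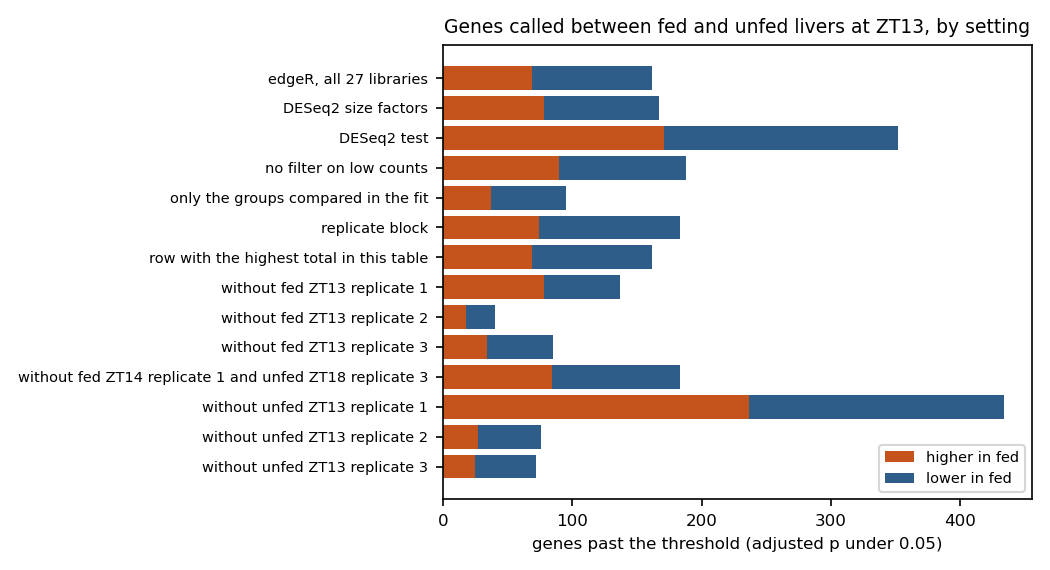
Number of genes past the threshold between fed and unfed livers at ZT13 under each setting, higher in fed in orange and lower in blue. The count is 162 in the fit of all 27 libraries, 40 without fed replicate 2, 434 without unfed replicate 1 and 352 with DESeq2.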

How the data were processed

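RNA was extracted from about 5 mg of liver with TRIzol and 1000 ng entered each polyA library, per the labels' protocols. The authors deposited raw counts per RefSeq transcript, and per the submitters' processing notes STAR, HOMER, DESeq2 and mm10 were involved, with no version or role stated. No source used here says whether strand was used in counting. Of counts from 1 to 10, 75.7% to 84.6% are even in the C57BL/6 libraries. The authors' deposited peak lists hold positions only.

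Of 40458 rows, 40219 matched GRCm38.p6 genes (24790 genes), and the row with the highest total stood for a gene. Unmatched rows, 0.366% to 0.5% of counts in fed and 0.308% to 2.24% in unfed livers, were left out. Counts were tested with edgeR 4.0.16 in R 4.3.3 (TMM, filterByExpr, quasi-likelihood F-test, Benjamini-Hochberg) over the 27 C57BL/6 libraries in 9 groups, and SE is the log2 fold change over the square root of F. The GFP comparison was fitted over the 36 Nr3c1fl/fl libraries. CPM divide a count by the library's TMM-scaled total of tested genes in M. DESeq2 1.42.0 was an alternative. The scripts were tested on simulated data.

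Members and lists were chosen with earlier results of these data known. Named by rule are the 15 largest changes each way (at least 5 CPM, no overlap), list members past the threshold, 43 fixed genes, the 3 smallest p of each list, and up to 6 genes each way per interaction. Predicted genes are not named, and a gene that the rule names is not reported here. No 2 of the 6 libraries were duplicates (Pearson r over genes 0.984 to 0.995). Replicate numbers were not used to pair samples in the main fit.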

Additional observations from a re-analysis of the deposited data

Results flagged for a closer look

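In 461 genes the response to food at ZT13 differed from the mean response at ZT14, ZT18 and ZT22 by the interaction test. Values below are the ZT13 log2 fold change minus that mean. Among genes called at ZT13 the difference was 0.83 for Foxa1, 0.9 for Foxa3, 0.96 for Nuak2, 0.63 for Mmp14, 0.62 for Klhl25, 0.49 for Prkab1, 1.44 for Arid3a and 0.93 for Bcor, which all rose at ZT13. Among genes that fell at ZT13 it was -4.79 for Apba2, -1.45 for Fcgr4, -0.81 for Cep44 and -0.52 for Slc19a2, and 0.96 for Hdc and 0.79 for Slc8b1, which fell less at ZT13 than later. Of these, Arid3a, Fcgr4, Foxa1, Hdc, Klhl25, Mmp14, Nuak2, Prkab1, Slc19a2 and Slc8b1 missed the threshold without at least 1 of the ZT13 libraries, at adjusted p-values of 0.0514 to 0.171. Fed replicate 1 was such a library for Fcgr4, Hdc, Slc19a2 and Slc8b1. Fed replicate 2 was one for all of them but Foxa1. Fed replicate 3 was one for Arid3a, Foxa1, Hdc, Klhl25, Mmp14 and Slc8b1. Unfed replicate 1 was one for Hdc. Unfed replicate 2 was one for Arid3a, Fcgr4, Foxa1, Mmp14, Nuak2 and Slc8b1, and unfed replicate 3 for all but Arid3a and Fcgr4.

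By the smallest adjusted p, responses higher at ZT13 than later included 1.21 for Por, 1.08 for Fosl2, 0.99 for Gfra1, 0.89 for Cpt1a and 0.68 for Il17ra. Responses lower at ZT13 included -1.84 for Acss2, -1.68 for Acly, -1.8 for Elovl6, -2.81 for Aqp8 and -5.29 for Chrna4. Acss2os had -1.88, and it overlaps Acss2, so unstranded reads of that pair cannot be told apart. Chrna4, a nicotinic receptor subunit, averaged 56.9 ± 22.7 CPM in fed and 0.791 ± 0.839 CPM in unfed livers at ZT18 (SD, n = 3 each).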

How the results depend on the processing

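The count of 162 genes at ZT13 was 352 with DESeq2, 95 with the fed and unfed ZT13 groups alone, and 40 to 434 with 1 ZT13 library left out (40 without fed replicate 2, 434 without unfed replicate 1, 85 without fed replicate 3, 76 without unfed replicate 2 and 72 without unfed replicate 3). It was 167 with DESeq2's size factors and 188 without a filter. No called gene changed direction under any of the 13 settings, and 32 kept their call under all of them. With the replicate number as a block the count was 183, sharing 154 genes. Same-numbered ZT13 samples had deviations with correlations near 0 (r = -0.031, 0.007 and 0.066). The labels do not say that a number marks a shared cage, litter or day, and these values from ZT13 alone cannot settle it.

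The 461 differences from later hours were 771 with DESeq2 and 200 to 643 with 1 library left out. The GFP comparison, with 464 genes, gave 749 with DESeq2, 0 with its groups alone (edgeR) and 149 to 477 with 1 library left out. Pathway list members past the threshold, 26, were 47 with DESeq2 and 10 to 53 with 1 library left out. With the ZT13 groups alone, 59.5% of genes that rose and 70.7% of those that fell had a GR peak within 25 kb. Within 50 kb, a window chosen after seeing the data, 64.5% of genes that fell and 50.7% of those that rose did, against 39.3% of all genes tested. For genes that fell, the share within 25 kb was 49.7 to 66% with 1 library left out. Genes without a call changed sign with 1 library left out, their log2 fold changes running from -0.14 to 0.11 for Acaca, -0.03 to 0.46 for Arntl, -0.09 to 0.04 for Fkbp5, -0.05 to 0.03 for Junb, -0.21 to 0.19 for Per1, -0.18 to 0.4 for Pfkfb3 and -0.21 to 0.01 for Por. The causes of these shifts were not tested. Depth limits genes near 1 CPM, such as Fgf21.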
